A study of Mus musculus with 14 samples.

Results

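Phospholipid remodeling and arachidonate metabolism were followed here through 42 genes, taken by symbol from the 29923 genes of a bulk mRNA table of mouse liver tumours. They comprise 9 genes of phosphatidylcholine and related head group synthesis, 8 lysophospholipid acyltransferases, 7 phospholipases, 3 secreted enzymes of plasma lipids, 7 desaturases, elongases and acyl-CoA synthetases, and 8 eicosanoid enzymes. The tumours were raised in C57BL/6 mice by injecting transposon plasmids into the tail vein under pressure together with the SB100 transposase, so that liver cells in the animal took up the drivers. The 4 groups were 4 Luc Aoah tumours (MYC with luciferase, plus a PKT2/CLP-Aoah plasmid), 4 Luc vector tumours (MYC with luciferase, plus PKT2/CLP-Vec), 3 LucOS Aoah tumours (MYC with luciferase and the antigens OVA, SIN and SIY, plus PKT2/CLP-Aoah) and 3 LucOS vector tumours (the same driver and antigens, plus PKT2/CLP-Vec). All groups thus share a MYC driver and the transposase, and delivery by this route reaches mainly hepatocytes, whereas in untreated animals Aoah is made mainly by macrophages and other immune cells. A plasmid for truncated beta-catenin (pT3-N90-CTNNB1) is also listed without the tumours that received it, and a protocol for anti-PD1 is given with no tumour named as treated. Ages are not given, and the labels number the tumours without saying that each came from its own animal, so the p-values measure only the spread between these samples.

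Membrane phosphatidylcholine is assembled from choline in the Kennedy pathway, and its acyl chains are then exchanged in the Lands cycle, in which a phospholipase A cuts a chain off and an acyltransferase puts another one on. Arachidonate is built from linoleate by desaturases and an elongase, is stored in these phospholipids, and is the substrate of the cyclooxygenase and lipoxygenase enzymes once a phospholipase has released it. In the liver, hepatocytes carry out most of the lipid synthesis, while macrophages and other blood-derived cells hold most of the enzymes that make eicosanoids. Aoah, acyloxyacyl hydrolase, is a lipase best known for removing acyl chains from bacterial lipopolysaccharide, and it also acts on phospholipids.

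The values are TPM, a unit in which transcript abundances are scaled to gene length and to the total of each tumour, so levels can be compared between genes but the depth of the libraries is unknown. Aoah itself ran from 283.72 to 685.24 TPM across the Luc Aoah tumours and from 576.03 to 931.15 TPM across the LucOS Aoah tumours. The vector tumours had 18.57, 0.74, 54.76 and 0.89 TPM (Luc 1 to 4) and 1.28, 1.59 and 3.43 TPM (LucOS 1 to 3), so Luc vector 1 and Luc vector 3 stood above the other vector tumours. Luc Aoah 3 had 9.19% of its TPM in 316 small noncoding RNA genes, against 1.06% to 2.37% elsewhere, and LucOS Aoah 3 had 16.6% in 15 mitochondrially encoded genes, against 3.41% to 8.45% elsewhere. The hepatocyte markers, 9 of them led by Alb, were present in every tumour, with a summed level of 6072 to 21720 TPM across Luc Aoah, 5516 to 7721 TPM in Luc vector, 7321 to 17209 TPM in LucOS Aoah and 3290.3 to 7267 TPM in LucOS vector tumours. Of the other lists, T cell markers summed to 27.9 to 50.7 TPM across Luc Aoah against 2.49 to 11.3 TPM in Luc vector tumours, and to 30.3 to 101 TPM across LucOS Aoah against 7.68 to 21.8 TPM in LucOS vector tumours. Neutrophil markers summed to 51.3 to 101 TPM across Luc Aoah against 123 to 383 TPM in Luc vector tumours, and to 127 to 452 TPM across LucOS Aoah against 404 to 909.8 TPM in LucOS vector tumours. Stellate cell and fibroblast markers summed to 125 to 188 TPM across Luc Aoah against 37.5 to 64.3 TPM in Luc vector tumours, and to 104 to 223 TPM across LucOS Aoah against 61.0 to 73.8 TPM in LucOS vector tumours. Of the 8 of them tested, 4 rose in Luc, 0 in LucOS (by limma, 5 at an unadjusted p under 0.05) and 5 on average. Dendritic cell markers were low, 5 of 9 staying under 1 TPM in all tumours, and summed to 3.28 to 5.62 TPM across Luc Aoah against 1.5 to 1.78 TPM in Luc vector tumours, and to 4.13 to 10.6 TPM across LucOS Aoah against 2.09 to 2.97 TPM in LucOS vector tumours. Only 1 of these 9 markers, Batf3, was high enough to be tested. By limma its adjusted p was 0.18 in Luc, 0.539 in LucOS and 0.103 on average, so no dendritic marker was called. Thus the T cell, stellate and dendritic sums separated Aoah from vector tumours in both models, in the direction in which Plaat3, Lpcat2 and Enpp2 changed on average; the part of these cells in the members' changes was not tested.

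Promoter windows of 300 bases (250 before and 50 after the start of a transcript) were read from RefSeq on build GRCm38.p6 for 37 of the 42 genes (all but Pcyt2, Ptdss1, Enpp2, Fads1 and Alox5ap). Of these, 4 are shown. Plaat3 and Lpcat2 are the members whose Aoah tumours lay above the vector tumours in both models. The elongases Elovl2 and Elovl5 are shown for their ratio, which separated Aoah from vector tumours. That ratio was chosen after the values were seen and was not tested. Capitals mark matches, on either strand, to the E-box CACGTG bound by MYC and related factors, to the GC box GGGCGG bound by Sp factors, to the sterol element TCACNCCAC, or to the STAT element TTCNNNGAA; no 2 motifs overlapped. Each sequence runs 5′ to 3′ on the strand of its gene.
Plaat3 (chr19:7557209-7557508, plus strand): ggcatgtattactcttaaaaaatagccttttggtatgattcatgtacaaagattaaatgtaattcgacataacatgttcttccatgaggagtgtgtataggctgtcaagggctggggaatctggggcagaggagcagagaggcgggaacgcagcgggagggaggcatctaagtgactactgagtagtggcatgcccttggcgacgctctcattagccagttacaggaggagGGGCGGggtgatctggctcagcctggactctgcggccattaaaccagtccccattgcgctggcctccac
Lpcat2 (chr8:92855083-92855382, plus strand): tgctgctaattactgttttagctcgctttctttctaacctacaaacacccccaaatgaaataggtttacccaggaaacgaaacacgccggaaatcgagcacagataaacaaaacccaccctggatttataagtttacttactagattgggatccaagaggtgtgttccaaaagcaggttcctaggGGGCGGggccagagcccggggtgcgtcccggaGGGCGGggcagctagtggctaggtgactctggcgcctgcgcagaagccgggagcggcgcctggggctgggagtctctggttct
Elovl2 (chr13:41220354-41220653, minus strand): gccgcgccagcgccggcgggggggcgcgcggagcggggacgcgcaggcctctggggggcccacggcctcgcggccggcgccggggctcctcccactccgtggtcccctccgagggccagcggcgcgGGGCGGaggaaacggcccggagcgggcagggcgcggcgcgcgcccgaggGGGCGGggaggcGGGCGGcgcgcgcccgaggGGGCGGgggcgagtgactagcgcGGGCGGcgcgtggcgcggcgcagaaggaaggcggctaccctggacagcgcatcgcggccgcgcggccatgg
Elovl5 (chr9:77917115-77917414, plus strand): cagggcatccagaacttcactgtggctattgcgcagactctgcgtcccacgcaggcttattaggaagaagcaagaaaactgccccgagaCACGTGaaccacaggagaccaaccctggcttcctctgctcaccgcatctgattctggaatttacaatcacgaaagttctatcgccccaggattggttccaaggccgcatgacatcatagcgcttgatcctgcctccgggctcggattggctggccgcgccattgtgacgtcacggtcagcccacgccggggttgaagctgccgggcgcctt
The window of Plaat3 held 1 GC box, that of Lpcat2 held 2 and that of Elovl2 held 5, whereas that of Elovl5 held no GC box and 1 E-box. Elovl2 also had the most G and C, 84.7% of its window, against 57.7% for Elovl5, 54.7% for Lpcat2 and 52.0% for Plaat3. A GC box was in 28 of the 37 members' windows (75.7%) and in 35.7% of all 32851 windows. The E-box was in 3 members' windows (8.11%; Elovl5, Ptges2 and Ptgs2) and in 7.15% of all, the sterol element in 2 (Pcyt1a and Pla2g12a) and in 1.24% of all, and the STAT element in 1 (Pla2g7) and in 8.3% of all. The members' shares count 1 window per gene, while the shares of all count every window, so the 2 kinds of share are not counted alike. These are matches of letters in the window and not measured binding.

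Of the 42 genes, 37 reached 1 TPM in at least 3 tumours and were tested; Mboat1, Mboat2, Alox5, Ptgs2 and Ltc4s did not. Changes are log2 differences of TPM + 1 with their standard error (SE), from a limma fit across 13466 genes, and a gene is said to rise or fall where its adjusted p was under 0.05. In Luc tumours 10 of the 37 tested members changed with Aoah (27.0%), against 22.2% of all genes tested. The members that rose were 3 (all genes, 7.93%) and those that fell were 7 (all genes, 14.3%). The median log2 change of the members, -0.24, was that of all genes, also -0.24, so a fall of this size is the level of the whole table in Luc tumours. Changes in Luc relative to this median are given below for Plaat3, Pla2g12a and Ptdss1. For the other members that rose they were 1.48 (Chpt1) and 1.10 (Lpcat2). For the others that fell they were -1.11 (Pla2g6), -0.99 (Elovl2), -0.90 (Lpcat4), -0.58 (Chka) and -0.57 (Pisd). In LucOS tumours Plaat3 alone rose with Aoah, 1 of 37 (2.7%) against 0.965% of all genes (0.75% higher and 0.215% lower), with a median change of 0.03 for the members and -0.02 for all genes. Averaged over both models, 6 members changed (16.2%, against 14.7% of all genes), of which 4 rose (all genes, 8.02%) and 2 fell (all genes, 6.68%). In Luc and on average the shares of members that changed were thus close to those of all genes.

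These counts depended on single tumours. In Luc tumours the count of 10 was 4 without Luc Aoah 1, 2 without Luc Aoah 3, 1 without Luc Aoah 4, 2 without Luc vector 1, 1 without Luc vector 3 and 4 without Luc vector 4. In LucOS tumours it was 0 without LucOS Aoah 3 and 3 without LucOS vector 2, and averaged over both models it was 10 without Luc Aoah 2 and 2 without LucOS vector 3. Centring each tumour on its median gave 7 members higher and 6 lower in Luc tumours, and 6 higher and 6 lower on average. The share of all genes called in each of these settings is not given here. These shifts therefore do not show whether the members moved apart from the whole table. Without regard to a test, the Aoah tumours lay all above or all below the vector tumours for 8 members in the Luc model (4 above and 4 below), where 20.9% of all genes did (11.8% above and 9.1% below). In LucOS this held for 2 members, Plaat3 and Lpcat2, both above, where 12.3% of all genes did (6.22% above and 6.07% below).

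**Figure D1:**
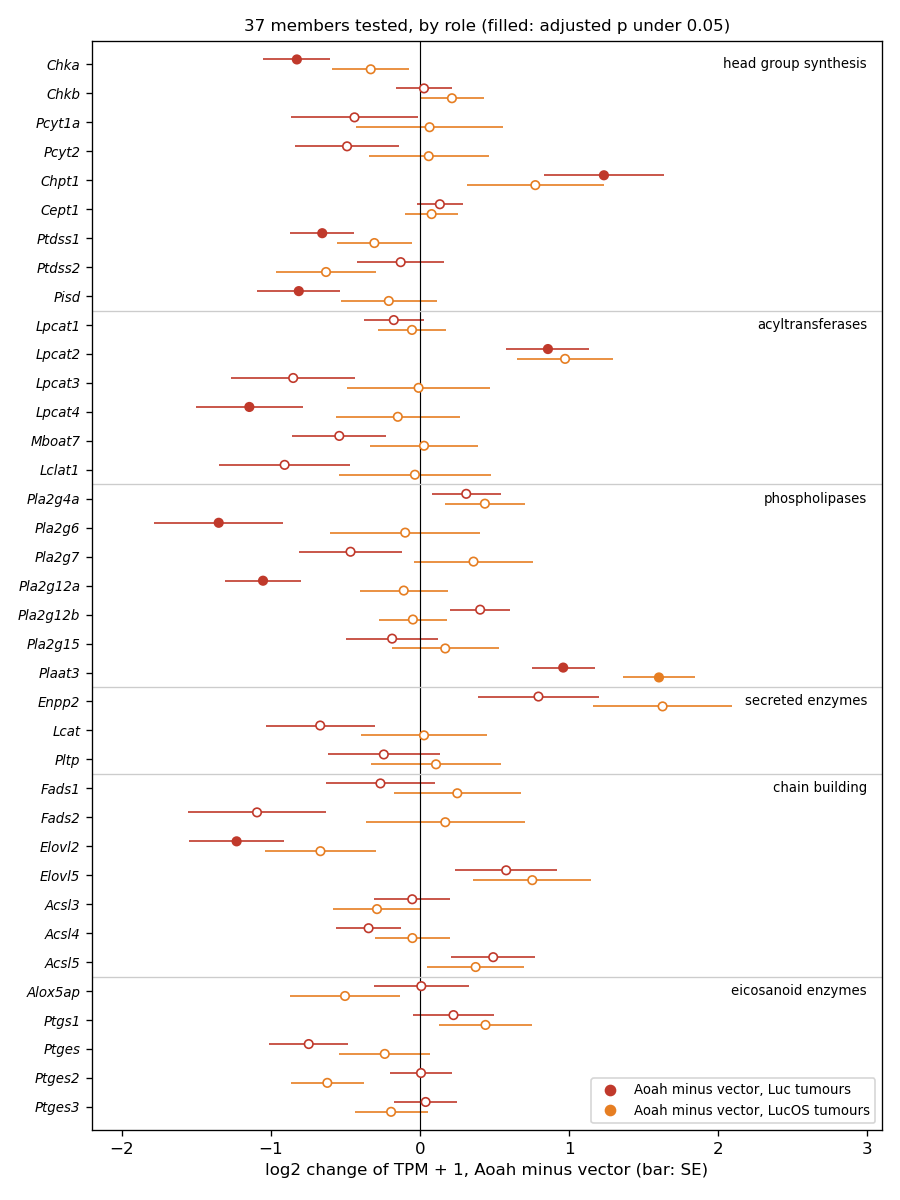
Log2 change of TPM + 1 with Aoah in Luc (red) and LucOS (orange) tumours for the 37 members tested, ordered by role; the bar is the SE and a filled point has an adjusted p under 0.05. Plaat3 is filled in both models, at 0.96 in Luc and 1.60 in LucOS tumours, and most Luc points of the synthesis and acyltransferase genes lie left of 0.

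Among the phospholipases, Plaat3 rose and Pla2g12a and Pla2g6 fell with Aoah in Luc tumours. Plaat3 encodes a phospholipase A and acyltransferase that is abundant in adipose tissue. It was at 12.4, 11.2, 14.6 and 18.9 TPM in Luc Aoah tumours, against 7.53, 6.87, 6.36 and 6.16 TPM in Luc vector tumours. It was at 25.2, 21.5 and 37.7 TPM in LucOS Aoah tumours, against 7.36, 8.34 and 9.45 TPM in LucOS vector tumours. The Aoah and vector tumours of each model did not overlap, the Aoah tumours being higher, and the LucOS Aoah tumours also lay above all Luc Aoah tumours. The log2 change was 0.96 ± 0.21 (SE; adjusted p = 0.00887) in Luc tumours, 1.60 ± 0.24 (SE; adjusted p = 0.011) in LucOS and 1.28 ± 0.16 (SE; adjusted p = 0.000156) on average over both. Relative to the median of all genes it was 1.20 in Luc tumours and 1.62 in LucOS. The adjusted p in LucOS was 0.0539 without LucOS Aoah 3, while in Luc it stayed at or below 0.0423 without any single tumour and was 0.0879 without Luc vector 1 and Luc vector 3 together. The average passed in 25 of 25 alternatives. These are bulk tumours, in which more or fewer cells of a type and more or less RNA per cell cannot be told apart.

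Pla2g12a, a secreted phospholipase, was at 33.2, 34.0, 16.4 and 23.6 TPM in Luc Aoah tumours, against 52.4, 43.5, 63.1 and 61.4 TPM in Luc vector tumours. Pla2g12a had 44.2, 31.8 and 22.4 TPM in LucOS Aoah tumours, against 28.0, 39.6 and 35.9 TPM in LucOS vector tumours. All Luc Aoah tumours lay below all Luc vector tumours, whereas the LucOS groups overlapped. The log2 change in Luc was -1.05 ± 0.25 (SE; adjusted p = 0.0142), or -0.81 relative to all genes, and -0.11 ± 0.29 (SE; adjusted p = 0.945) in LucOS. The adjusted p in Luc was 0.0517 without Luc Aoah 4 and 0.0511 without Luc vector 3. Its relative Pla2g12b, which lacks the catalytic activity and in mice is needed for lipoprotein secretion by the liver, had the highest mean of the 7 over all 14 tumours, although Pla2g12a had the higher mean in Luc vector tumours (55.1 against 46.8 TPM). It was at 64.5, 46.1, 70.6 and 64.8 TPM in Luc Aoah tumours, against 49.8, 62.8, 36.8 and 37.7 TPM in Luc vector tumours. Pla2g12b had 51.1, 58.8 and 50.9 TPM in LucOS Aoah tumours, against 51.2, 50.2 and 65.6 TPM in LucOS vector tumours. Groups overlapped in both models, and the log2 changes were 0.40 ± 0.20 (SE; adjusted p = 0.137) in Luc tumours and -0.05 ± 0.23 (SE; adjusted p = 0.974) in LucOS.

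Pla2g6, a calcium-independent phospholipase, was at 6.28, 12.7, 1.78 and 3.75 TPM in Luc Aoah tumours, against 15.8, 7.48, 19.0 and 18.6 TPM in Luc vector tumours. Pla2g6 had 10.9, 4.54 and 11.6 TPM in LucOS Aoah tumours, against 7.47, 11.3 and 8.76 TPM in LucOS vector tumours. Luc Aoah 2 lay within the range of the vector tumours, and the LucOS groups overlapped throughout. The log2 change in Luc was -1.35 ± 0.43 (SE; adjusted p = 0.0409). The adjusted p was 0.066 to 0.129 with each of Luc Aoah 1, Luc Aoah 3, Luc Aoah 4, Luc vector 1, Luc vector 3 and Luc vector 4 left out in turn. The other 3 did not pass in any comparison by limma. Pla2g4a, the cytosolic phospholipase that releases arachidonate, was low, at 1.85 to 2.47 TPM in Luc Aoah tumours, against 1.29 to 1.74 TPM in Luc vector tumours, and at 1.67 to 4.67 TPM in LucOS Aoah tumours, against 1.3 to 2.28 TPM in LucOS vector tumours; the Luc groups did not overlap, yet the log2 change was 0.31 ± 0.23 (SE; adjusted p = 0.312). Pla2g7, the secreted enzyme that inactivates platelet-activating factor, was at 8.22 to 13.6 TPM in Luc Aoah tumours, against 12.8 to 20.6 TPM in Luc vector tumours, and at 14.9 to 44.1 TPM in LucOS Aoah tumours, against 10.2 to 29.1 TPM in LucOS vector tumours, with its highest value in LucOS Aoah 3. Pla2g15, the lysosomal phospholipase, ranged over 2.76 to 7.59 TPM in the 14 tumours.

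Among the acyltransferases, Lpcat2 rose and Lpcat4 fell in Luc tumours, and Lpcat3 did not pass. Lpcat2 reacylates lysophosphatidylcholine and also makes platelet-activating factor, mainly in macrophages and neutrophils. It was at 3.81, 3.45, 2.71 and 3.96 TPM in Luc Aoah tumours, against 1.38, 0.90, 1.65 and 2.04 TPM in Luc vector tumours. Lpcat2 had 4.36, 3.91 and 10.3 TPM in LucOS Aoah tumours, against 1.52, 2.41 and 3.59 TPM in LucOS vector tumours. In both models the Aoah tumours lay above the vector tumours, by a narrow margin in LucOS (3.91 against 3.59 TPM), and LucOS Aoah 3 had the highest level. The log2 change was 0.86 ± 0.28 (SE; adjusted p = 0.0419) in Luc tumours, 0.97 ± 0.32 (SE; adjusted p = 0.191) in LucOS and 0.92 ± 0.21 (SE; adjusted p = 0.0105) on average. The average passed in 24 of 24 alternatives, whereas in Luc the adjusted p was 0.0664 to 0.113 with each of Luc Aoah 1, Luc Aoah 3, Luc Aoah 4, Luc vector 1, Luc vector 2, Luc vector 3 and Luc vector 4 left out in turn.

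Of the 12 macrophage markers, all of which were detected, 2 rose in Luc tumours, 0 in LucOS and 1 on average (by limma, at unadjusted p under 0.05 these were 3, 0 and 4). Their summed level was 354 to 517 TPM across Luc Aoah against 247 to 487 TPM in Luc vector tumours, and 273 to 910.4 TPM in LucOS Aoah against 180.4 to 445 TPM in LucOS vector tumours. The highest sum was that of LucOS Aoah 3, the tumour with the highest Lpcat2, Pla2g4a and Pla2g7. The T cell, stellate and dendritic sums of LucOS Aoah 3 were also the highest of all tumours. Plaat3, Enpp2, Pltp and Ptgs1 were highest there too, whereas Alox5ap was highest in LucOS vector 3. LucOS Aoah 3 is also the tumour with 16.6% of its TPM in mitochondrially encoded genes. Of the 7 neutrophil markers tested, 4 fell in Luc tumours, with Ly6g under 1 TPM in all tumours. Of the 5 monocyte markers tested, 2 rose and 1 fell in Luc tumours and on average, and 0 passed in LucOS (by limma, 2 at an unadjusted p under 0.05). Monocyte markers summed to 86.3 to 124 TPM across Luc Aoah against 59.5 to 112 TPM in Luc vector tumours, and to 119.7 to 200.3 TPM across LucOS Aoah against 122 to 322 TPM in LucOS vector tumours. Ly6c2, a monocyte marker chosen after its values were seen, was at 7.96 to 14.9 TPM in the Luc Aoah tumours, against 2.86 to 4.69 TPM in Luc vector tumours. Between the LucOS groups Ly6c2 overlapped (9.76 to 23.3 TPM for Aoah and 4.88 to 11.5 TPM for vector). Chil3, another monocyte marker picked in the same way, went the opposite way. Chil3 spanned 1.2 to 5.88 TPM among Luc Aoah and 12.1 to 38.2 TPM among Luc vector tumours. Its LucOS ranges, 2.42 to 6.35 TPM for Aoah and 8.73 to 26.6 TPM for vector, did not overlap either. The part of these cells in the change of Lpcat2 was not tested.

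Lpcat4, which acts on lysophosphatidylethanolamine and lysophosphatidylcholine, was at 10.9, 14.5, 5.15 and 8.46 TPM in Luc Aoah tumours, against 29.3, 10.7, 27.5 and 24.4 TPM in Luc vector tumours. Lpcat4 had 18.9, 8.61 and 15.0 TPM in LucOS Aoah tumours, against 10.2, 20.4 and 16.4 TPM in LucOS vector tumours. Luc vector 2 lay among the Aoah tumours, and the LucOS groups overlapped. The log2 change in Luc was -1.14 ± 0.36 (SE; adjusted p = 0.0385). The adjusted p was 0.0636 to 0.12 with each of Luc Aoah 1, Luc Aoah 3, Luc Aoah 4, Luc vector 1, Luc vector 3 and Luc vector 4 left out in turn. Lpcat3, the main enzyme that places arachidonate and linoleate in liver phosphatidylcholine, was the most abundant of the 8. It was at 24.4, 53.2, 10.2 and 24.7 TPM in Luc Aoah tumours, against 40.0, 25.6, 64.1 and 58.4 TPM in Luc vector tumours. Lpcat3 had 35.4, 20.2 and 33.5 TPM in LucOS Aoah tumours, against 23.2, 46.6 and 22.6 TPM in LucOS vector tumours. It overlapped between the groups of both models, with log2 changes of -0.85 ± 0.42 (SE; adjusted p = 0.135) in Luc tumours and -0.01 ± 0.48 (SE; adjusted p = 0.999) in LucOS.

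Mboat7, which places arachidonate in phosphatidylinositol, ranged over 2.87 to 11.4 TPM, and Lclat1, which acts on cardiolipin, over 2.11 to 14.4 TPM. Both were lowest in Luc Aoah 3. Their log2 changes in Luc were -0.54 ± 0.31 (SE; adjusted p = 0.199) for Mboat7 and -0.91 ± 0.44 (SE; adjusted p = 0.131) for Lclat1. Lpcat1, known for surfactant lipid in the lung, was at 1.23 to 2.68 TPM. Mboat1 and Mboat2 stayed at or below 0.57 TPM in every tumour and were not tested.

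**Figure D2:**
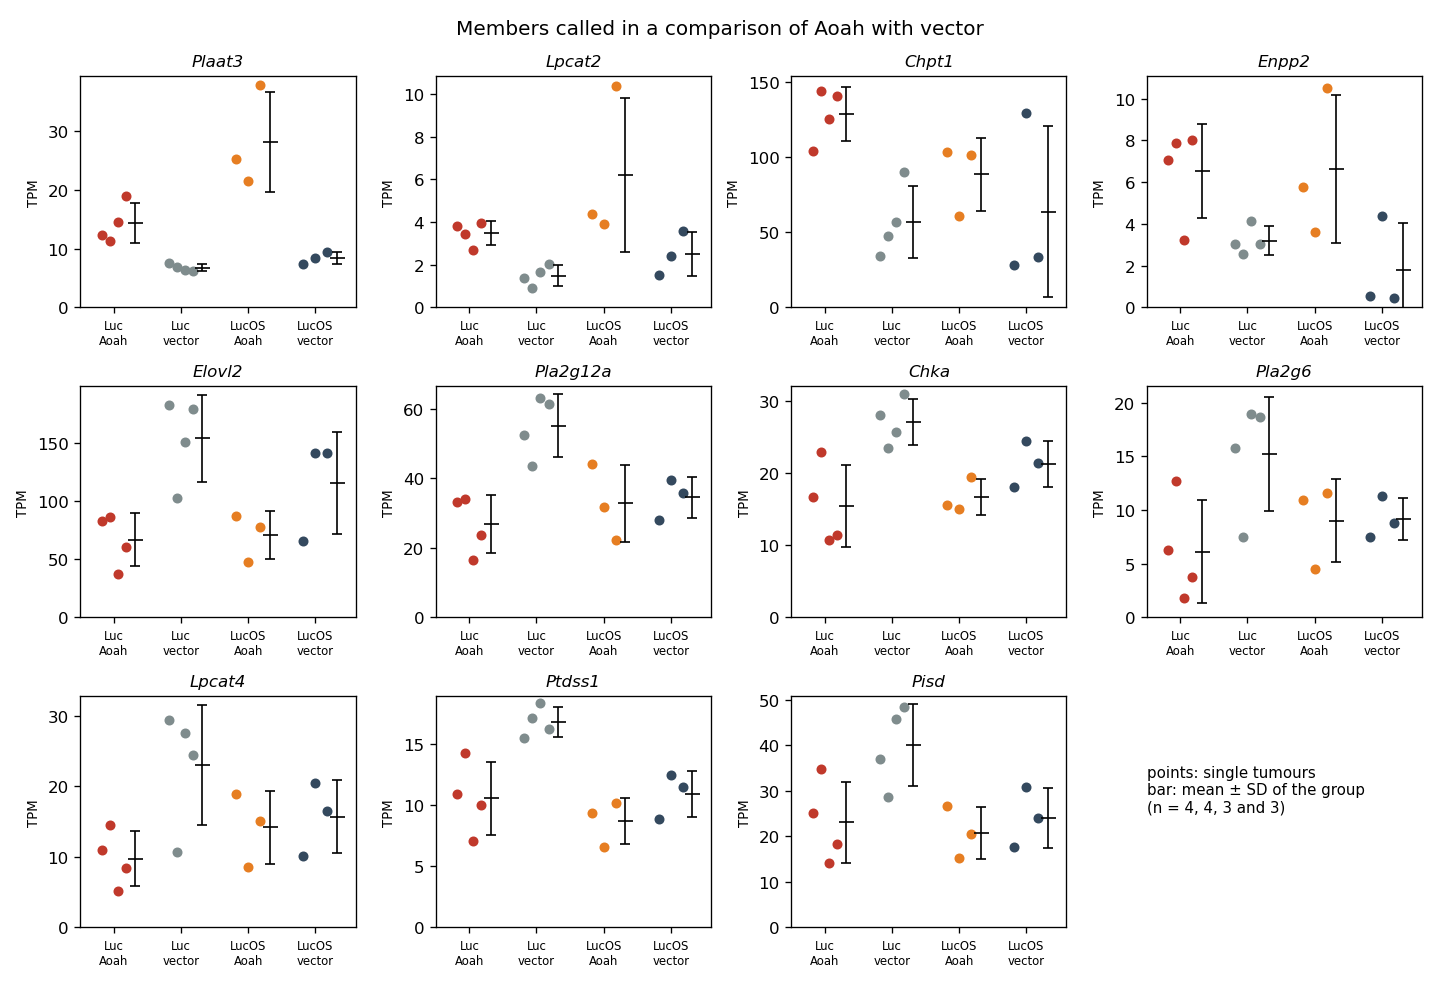
TPM in each tumour (points) with the mean ± SD of the group (bar; n = 4, 4, 3 and 3) for the 11 members that passed in a comparison of Aoah with vector; axes start at 0 and cut the lower part of 1 bar (Enpp2 in LucOS vector). Plaat3 and Lpcat2 separate Aoah from vector in both models, and Elovl2, Pla2g12a, Chka and Ptdss1 lie lower in Luc Aoah than in Luc vector tumours without overlap.

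In head group synthesis, Chpt1 rose and Chka, Ptdss1 and Pisd fell with Aoah in Luc tumours, and none of the 9 genes passed in LucOS, where 0 had an unadjusted p under 0.05. Chpt1, the cholinephosphotransferase of the last step of the Kennedy pathway, was at 104, 144, 126 and 141 TPM in Luc Aoah tumours, against 34.2, 47.3, 56.7 and 90.2 TPM in Luc vector tumours. Chpt1 had 103, 60.7 and 102 TPM in LucOS Aoah tumours, against 28.2, 129 and 33.7 TPM in LucOS vector tumours. The Luc groups did not overlap, while LucOS vector 2 was the highest LucOS tumour. The log2 change was 1.23 ± 0.40 (SE; adjusted p = 0.0417) in Luc tumours, 0.77 ± 0.46 (SE; adjusted p = 0.557) in LucOS and 1.00 ± 0.31 (SE; adjusted p = 0.0401) on average. The adjusted p in Luc was 0.0551 to 0.109 with each of Luc Aoah 1, Luc Aoah 3, Luc Aoah 4, Luc vector 1, Luc vector 2 and Luc vector 3 left out in turn. That of the average was 0.0504 to 0.112 with each of Luc Aoah 1, Luc Aoah 3, Luc Aoah 4, Luc vector 1, Luc vector 2, Luc vector 3, LucOS Aoah 1, LucOS Aoah 3, LucOS vector 1 and LucOS vector 3 left out in turn.

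Chka, the choline kinase of the first step, was at 16.8, 22.9, 10.7 and 11.4 TPM in Luc Aoah tumours, against 28.0, 23.5, 25.8 and 31.0 TPM in Luc vector tumours. Chka had 15.6, 15.0 and 19.5 TPM in LucOS Aoah tumours, against 18.0, 24.4 and 21.4 TPM in LucOS vector tumours. Each Luc Aoah tumour lay below each Luc vector tumour, Luc Aoah 2 only just (22.9 against 23.5 TPM), and the LucOS groups overlapped. The log2 change was -0.83 ± 0.22 (SE; adjusted p = 0.0237) in Luc tumours, -0.33 ± 0.26 (SE; adjusted p = 0.694) in LucOS and -0.58 ± 0.17 (SE; adjusted p = 0.0359) on average. The adjusted p in Luc was 0.058 to 0.088 with each of Luc Aoah 3, Luc Aoah 4, Luc vector 1, Luc vector 3 and Luc vector 4 left out in turn. For the average it was 0.0573 to 0.083 with each of Luc Aoah 3, Luc Aoah 4, Luc vector 1, Luc vector 3, Luc vector 4, LucOS Aoah 1, LucOS Aoah 2, LucOS vector 2 and LucOS vector 3 left out in turn. The second choline kinase, Chkb, did not pass, with 28.1 to 32.7 TPM in Luc Aoah tumours, against 23.3 to 37.5 TPM in Luc vector tumours and a log2 change of 0.03 ± 0.19 (SE; adjusted p = 0.926).

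Ptdss1, which makes phosphatidylserine by exchanging the choline of phosphatidylcholine, was at 10.9, 14.2, 7.02 and 10.0 TPM in Luc Aoah tumours, against 15.5, 17.1, 18.3 and 16.2 TPM in Luc vector tumours. Ptdss1 had 9.31, 6.57 and 10.2 TPM in LucOS Aoah tumours, against 8.81, 12.4 and 11.5 TPM in LucOS vector tumours. Aoah and vector separated in Luc and overlapped in LucOS. The log2 change in Luc was -0.66 ± 0.22 (SE; adjusted p = 0.0442), or -0.41 relative to all genes, and it no longer passed once tumours were centred on their median (-0.34, adjusted p = 0.063). The adjusted p was 0.0521 to 0.138 with each of Luc Aoah 1, Luc Aoah 3, Luc Aoah 4, Luc vector 1, Luc vector 2, Luc vector 3 and Luc vector 4 left out in turn.

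Pisd, which turns phosphatidylserine into phosphatidylethanolamine in mitochondria, was at 25.1, 34.7, 14.2 and 18.4 TPM in Luc Aoah tumours, against 37.1, 28.6, 45.9 and 48.5 TPM in Luc vector tumours. Pisd had 26.6, 15.2 and 20.4 TPM in LucOS Aoah tumours, against 17.6, 30.8 and 24.0 TPM in LucOS vector tumours. Luc Aoah 2 lay within the range of the vector tumours. The log2 change in Luc was -0.81 ± 0.28 (SE; adjusted p = 0.0497), close to the threshold. The adjusted p was 0.0748 to 0.157 with each of Luc Aoah 1, Luc Aoah 3, Luc Aoah 4, Luc vector 1, Luc vector 3 and Luc vector 4 left out in turn.

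Pcyt2, which makes CDP-ethanolamine in the parallel ethanolamine branch, had the highest mean of head group synthesis over all 14 tumours, 95.9 TPM against 85.7 TPM for Chpt1, although Chpt1 had the higher mean in Luc Aoah tumours (129 against 84.8 TPM). It was at 85.9, 119, 49.8 and 84.7 TPM in Luc Aoah tumours, against 115, 83.6, 141 and 126 TPM in Luc vector tumours. Pcyt2 had 93.8, 57.0 and 113 TPM in LucOS Aoah tumours, against 45.8, 155 and 75.0 TPM in LucOS vector tumours. The groups overlapped in both models, with a log2 change of -0.49 ± 0.35 (SE; adjusted p = 0.289) in Luc. Pcyt1a, which makes CDP-choline and sets the rate of phosphatidylcholine synthesis, ranged over 6.17 to 25.9 TPM and had a log2 change of -0.44 ± 0.43 (SE; adjusted p = 0.442) in Luc. Cept1, which finishes both phosphatidylcholine and phosphatidylethanolamine, was nearly level across the tumours, at 44.8 to 62.8 TPM. Ptdss2, the second phosphatidylserine synthase, ranged over 4.88 to 24.6 TPM.

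Of the 3 secreted enzymes, Enpp2 rose with Aoah on average over both models and not in either model alone. Enpp2 is autotaxin, which makes lysophosphatidic acid from lysophosphatidylcholine in plasma. It was at 7.07, 7.86, 3.22 and 8.03 TPM in Luc Aoah tumours, against 3.06, 2.55, 4.15 and 3.05 TPM in Luc vector tumours. Enpp2 had 5.79, 3.61 and 10.5 TPM in LucOS Aoah tumours, against 0.57, 4.37 and 0.45 TPM in LucOS vector tumours. Luc Aoah 3 lay within the range of the vector tumours, and LucOS vector 2 above LucOS Aoah 2. The log2 change was 0.80 ± 0.40 (SE; adjusted p = 0.147) in Luc tumours, 1.63 ± 0.47 (SE; adjusted p = 0.119) in LucOS and 1.21 ± 0.31 (SE; adjusted p = 0.0176) on average. The adjusted p of the average was 0.0502 without LucOS Aoah 3 and 0.057 without LucOS vector 3.

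Lcat, the liver enzyme that esterifies plasma cholesterol with a chain of phosphatidylcholine, was at 97.5, 122, 53.0 and 82.0 TPM in Luc Aoah tumours, against 131, 127, 169 and 119.7 TPM in Luc vector tumours. Lcat had 84.3, 51.3 and 113 TPM in LucOS Aoah tumours, against 38.4, 154 and 77.9 TPM in LucOS vector tumours. Only Luc Aoah 2 reached the range of the Luc vector tumours, and the LucOS values overlapped. Pltp, the phospholipid transfer protein, was at 11.4, 12.4, 4.97 and 7.58 TPM in Luc Aoah tumours, against 9.22, 7.04, 18.5 and 9.4 TPM in Luc vector tumours. Pltp had 8.25, 6.17 and 19.5 TPM in LucOS Aoah tumours, against 5.88, 12.6 and 10.6 TPM in LucOS vector tumours. Neither passed, with log2 changes in Luc of -0.67 ± 0.37 (SE; adjusted p = 0.174) for Lcat and -0.24 ± 0.38 (SE; adjusted p = 0.635) for Pltp.

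In chain building, Elovl2 fell with Aoah, and its relative Elovl5 and the other 5 genes did not pass by limma. Elovl2 lengthens the longest polyunsaturated chains on the way to docosahexaenoate. It was at 82.9, 86.3, 36.9 and 60.9 TPM in Luc Aoah tumours, against 183, 103, 151 and 179 TPM in Luc vector tumours. Elovl2 had 87.0, 47.4 and 77.3 TPM in LucOS Aoah tumours, against 65.3, 141 and 141 TPM in LucOS vector tumours. The Luc groups did not overlap, and LucOS vector 1 lay among the LucOS Aoah tumours. The log2 change was -1.23 ± 0.32 (SE; adjusted p = 0.02) in Luc tumours, -0.67 ± 0.37 (SE; adjusted p = 0.515) in LucOS and -0.95 ± 0.24 (SE; adjusted p = 0.0188) on average. The adjusted p in Luc was 0.0545 to 0.0625 with each of Luc Aoah 3, Luc Aoah 4, Luc vector 1, Luc vector 3 and Luc vector 4 left out in turn. That of the average was 0.0585 without LucOS vector 3.

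Elovl5, which lengthens shorter polyunsaturated chains on the way to arachidonate, did not pass. It was at 67.5, 99.8, 40.7 and 94.4 TPM in Luc Aoah tumours, against 51.7, 28.0, 60.7 and 57.6 TPM in Luc vector tumours. Elovl5 had 75.4, 46.4 and 99.4 TPM in LucOS Aoah tumours, against 28.5, 62.8 and 39.3 TPM in LucOS vector tumours. Luc Aoah 3 and LucOS Aoah 2 lay within the ranges of their vector tumours. The log2 changes were 0.58 ± 0.34 (SE; adjusted p = 0.207) in Luc tumours, 0.75 ± 0.40 (SE; adjusted p = 0.481) in LucOS and 0.67 ± 0.26 (SE; adjusted p = 0.0975) on average. The ratio of Elovl2 to Elovl5 within each tumour, a measure chosen after the values were seen and not tested, was 0.645 to 1.23 in Luc Aoah against 2.48 to 3.66 in Luc vector tumours. In LucOS this ratio was 0.778 to 1.15 with Aoah against 2.25 to 3.58 with vector. No Aoah tumour reached a vector tumour in this ratio.

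Fads2, the desaturase of the first step from linoleate, was at 44.4, 86.1, 19.7 and 45.8 TPM in Luc Aoah tumours, against 100.2, 50.3, 129 and 117 TPM in Luc vector tumours. Fads2 had 81.3, 36.8 and 116 TPM in LucOS Aoah tumours, against 48.3, 115 and 43.8 TPM in LucOS vector tumours. Its log2 change in Luc was -1.09 ± 0.46 (SE; adjusted p = 0.0902) and did not pass. Fads1, the desaturase that forms arachidonate, was at 21.6 to 67.8 TPM in Luc Aoah tumours, against 33.9 to 65.2 TPM in Luc vector tumours, and at 32.4 to 73.6 TPM in LucOS Aoah tumours, against 28.5 to 72.0 TPM in LucOS vector tumours. The ratio of Fads2 to Fads1, also untested, was 0.911 to 1.27 in Luc Aoah against 1.48 to 2.09 in Luc vector tumours, without overlap. In LucOS it overlapped, at 1.14 to 1.58 with Aoah against 1.22 to 1.70 with vector. The ratio of Pla2g12a to Pla2g12b was also computed, likewise untested, and overlapped in both models. It was 0.233 to 0.738 in Luc Aoah against 0.693 to 1.71 in Luc vector tumours. In LucOS that ratio was 0.439 to 0.866 with Aoah against 0.547 to 0.788 with vector.

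Acsl5, the most abundant acyl-CoA synthetase of the 3, was at 158, 219, 117 and 222 TPM in Luc Aoah tumours, against 126, 77.8, 134 and 171 TPM in Luc vector tumours. Acsl5 had 184, 131 and 185 TPM in LucOS Aoah tumours, against 96.7, 189 and 112 TPM in LucOS vector tumours. The groups overlapped in both models, and the log2 change was 0.49 ± 0.28 (SE; adjusted p = 0.193) in Luc tumours and 0.37 ± 0.33 (SE; adjusted p = 0.736) in LucOS. Acsl4, which prefers arachidonate, was at 21.6 to 31.1 TPM in Luc Aoah tumours, against 27.2 to 43.4 TPM in Luc vector tumours, and at 31.9 to 39.5 TPM in LucOS Aoah tumours, against 29.5 to 55.4 TPM in LucOS vector tumours. Acsl3 ranged over 15.4 to 33.2 TPM in the 14 tumours. Neither passed in any comparison.

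**Figure D3:**
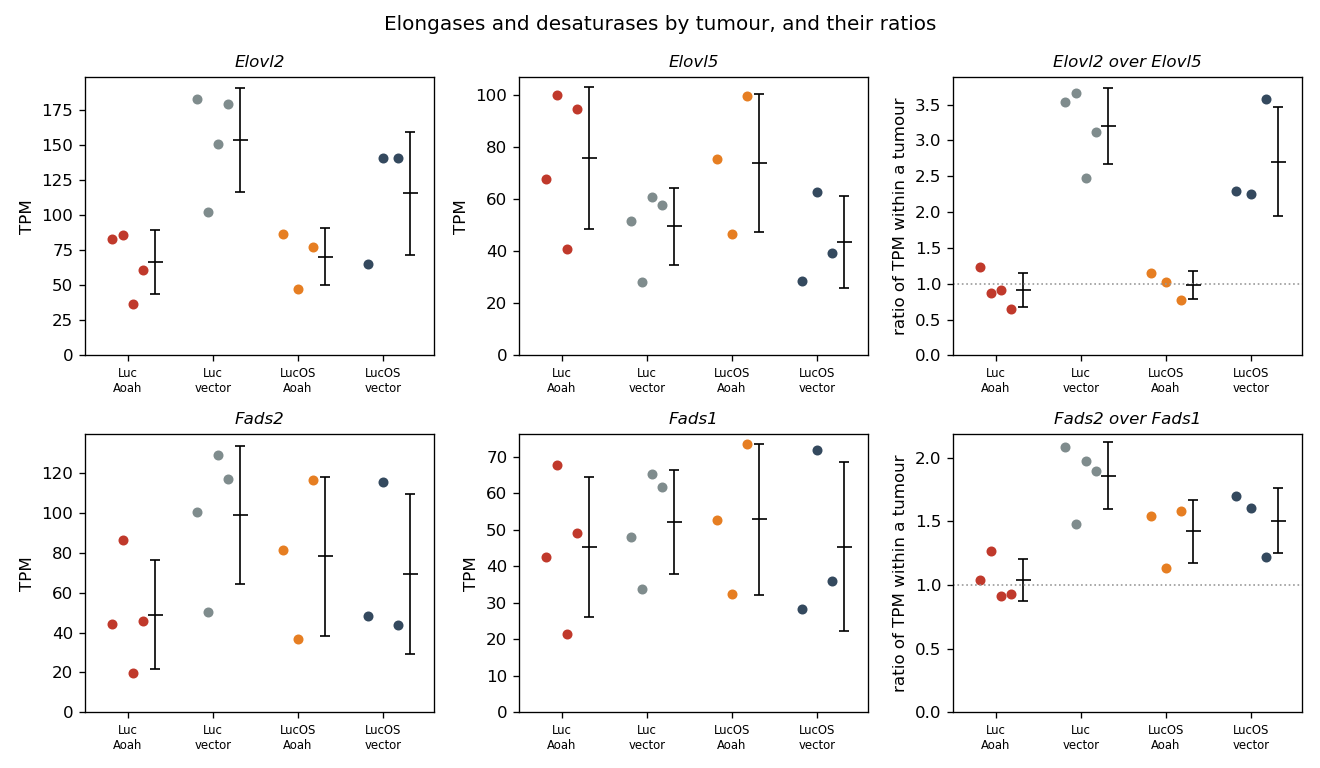
TPM in each tumour for Elovl2, Elovl5, Fads2 and Fads1, and the ratios of Elovl2 to Elovl5 and of Fads2 to Fads1 within each tumour (points; bar, mean ± SD of the group; dotted line, ratio of 1). The Elovl2 to Elovl5 ratio is at most 1.23 in the Aoah tumours and at least 2.25 in the vector tumours, while the Fads2 to Fads1 ratio separates the groups in Luc and overlaps in LucOS.

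The eicosanoid enzymes were low apart from Ptges3 and Ptges2, and none of the 5 tested changed with Aoah in either model or on average by limma, where 1 had an unadjusted p under 0.05 in each of these 3 comparisons. Ptges3, a prostaglandin E synthase better known as a co-chaperone of Hsp90, was the most abundant of all 42 genes. It was at 340.0, 347, 294 and 323 TPM in Luc Aoah tumours, against 379, 241, 287 and 384 TPM in Luc vector tumours. Ptges3 had 407, 424 and 229 TPM in LucOS Aoah tumours, against 394, 349 and 430.1 TPM in LucOS vector tumours. LucOS Aoah 3 had the lowest level and LucOS vector 3 the highest, and the groups overlapped. Ptges2, another prostaglandin E synthase, was at 38.5, 41.1, 26.6 and 27.6 TPM in Luc Aoah tumours, against 36.5, 30.0, 28.1 and 37.0 TPM in Luc vector tumours. Ptges2 had 23.4, 16.8 and 13.5 TPM in LucOS Aoah tumours, against 23.1, 27.5 and 32.4 TPM in LucOS vector tumours. The log2 change of Ptges2 was 0.01 ± 0.21 (SE; adjusted p = 0.984) in Luc tumours and -0.62 ± 0.24 (SE; adjusted p = 0.293) in LucOS.

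Ptgs1, the constitutive cyclooxygenase, was at 3.3 to 5.19 TPM in Luc Aoah tumours, against 2.52 to 5.23 TPM in Luc vector tumours, and at 2.68 to 6.31 TPM in LucOS Aoah tumours, against 1.88 to 3.83 TPM in LucOS vector tumours. Alox5ap, which presents arachidonate to the lipoxygenase and is made by myeloid cells, was at 4.59 to 9.62 TPM in Luc Aoah tumours, against 5.59 to 7.2 TPM in Luc vector tumours, and at 4.17 to 9.92 TPM in LucOS Aoah tumours, against 5.23 to 15.5 TPM in LucOS vector tumours. Its partner Alox5 was at most 0.42 TPM. The inducible cyclooxygenase Ptgs2 was at most 0.18 TPM and the leukotriene C synthase Ltc4s at most 0.95 TPM, so these last 3 genes stayed below 1 TPM in all 14 tumours. Ptges, the inducible prostaglandin E synthase, reached 1 TPM in 3 tumours, all of them Luc vector tumours (1.04, 2.31 and 1.29 TPM). Its log2 change in Luc was -0.75 ± 0.26 (SE; adjusted p = 0.0541), and it entered the test only through those 3 tumours.

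**Figure D4:**
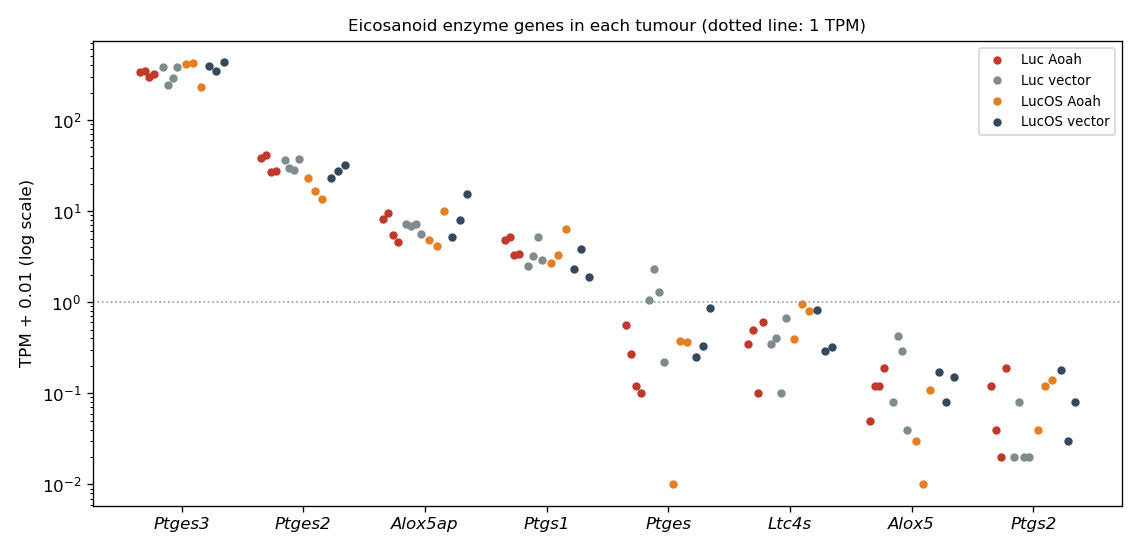
TPM + 0.01 on a log axis for the 8 eicosanoid enzyme genes in each tumour, coloured by group (Luc Aoah, Luc vector, LucOS Aoah, LucOS vector); the dotted line marks 1 TPM. Ptges3 lies above 228 TPM in every tumour, whereas Ltc4s, Alox5 and Ptgs2 lie below the line in all of them.

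A further 31 genes form, inactivate, modify or export eicosanoids or oxidise arachidonate, and several of them rose with Aoah. Of these, 19 were tested. In Luc tumours 8 rose (all genes, 7.93%) and 1 fell (all genes, 14.3%), in LucOS 2 rose (all genes, 0.75%) and 0 fell (all genes, 0.215%), and on average 10 rose (all genes, 8.02%) and 0 fell (all genes, 6.68%). The genes called thus made up 47.4% of the 19 in Luc (all genes, 22.2%), 10.5% in LucOS (all genes, 0.965%) and 52.6% on average (all genes, 14.7%). The list was chosen with earlier results of these data known, so these shares describe it and do not test the pathway. The median log2 change of the 19 was 0.78 in Luc, 0.82 in LucOS and 0.84 on average, where all genes had -0.24, -0.02 and -0.14. The genes with the smallest p were Mgst3, Cyp4f14, Cbr1 and Cyp2j5. Mgst3, a microsomal glutathione transferase that can form leukotriene C, was at 31.0 to 50.7 TPM in Luc Aoah tumours, against 9.39 to 13.2 TPM in Luc vector tumours, and at 34.5 to 40.9 TPM in LucOS Aoah tumours, against 5.82 to 16.9 TPM in LucOS vector tumours. Its groups did not overlap in either model, and the log2 change was 1.73 ± 0.27 (SE; adjusted p = 0.000966) in Luc tumours and 1.95 ± 0.31 (SE; adjusted p = 0.0143) in LucOS. The LucOS call was lost at 0.0678 without LucOS Aoah 1, 0.0591 without LucOS Aoah 3 and 0.0638 without LucOS vector 3. Cyp4f14, a mouse cytochrome that hydroxylates leukotriene B, was at 5.6 to 21.3 TPM in Luc Aoah tumours, against 0.18 to 0.55 TPM in Luc vector tumours and changed by 3.22 ± 0.46 (SE; adjusted p = 0.000546). It did not pass in LucOS, at 2.77 to 15.8 TPM in LucOS Aoah tumours, against 0.28 to 2.48 TPM in LucOS vector tumours, with a change of 1.95 ± 0.53 (SE; adjusted p = 0.104). Cyp2j5, an arachidonate epoxygenase of mouse liver and kidney, was at 47.3 to 105 TPM in Luc Aoah tumours, against 10.7 to 15.5 TPM in Luc vector tumours and changed by 2.47 ± 0.48 (SE; adjusted p = 0.00431). In LucOS Cyp2j5 did not pass, at 30.7 to 88.8 TPM in LucOS Aoah tumours, against 5.4 to 40.5 TPM in LucOS vector tumours, with a change of 1.94 ± 0.55 (SE; adjusted p = 0.119). Cbr1, a carbonyl reductase that acts on prostaglandin E, was at 228 to 321 TPM in Luc Aoah tumours, against 115 to 157 TPM in Luc vector tumours and changed by 0.98 ± 0.19 (SE; adjusted p = 0.00454). Nor did Cbr1 pass in LucOS, at 199 to 207 TPM in LucOS Aoah tumours, against 91.5 to 160.1 TPM in LucOS vector tumours, with a change of 0.83 ± 0.22 (SE; adjusted p = 0.104).

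Hpgd, the dehydrogenase that starts the inactivation of prostaglandins, also rose in both models. It was at 97.6 to 143 TPM in Luc Aoah tumours, against 53.9 to 74.2 TPM in Luc vector tumours, and at 78.1 to 113 TPM in LucOS Aoah tumours, against 35.4 to 65.5 TPM in LucOS vector tumours, with log2 changes of 0.80 ± 0.22 (SE; adjusted p = 0.024) and 1.16 ± 0.25 (SE; adjusted p = 0.0466), and on average of 0.98 ± 0.17 (SE; adjusted p = 0.00145). The adjusted p in Luc was 0.0551 to 0.0891 with each of Luc Aoah 1, Luc Aoah 4, Luc vector 1, Luc vector 3 and Luc vector 4 left out in turn. In LucOS it was 0.168 without LucOS Aoah 1, 0.179 without LucOS Aoah 3, 0.135 without LucOS vector 1 and 0.199 without LucOS vector 3. Ptgr1, which acts one step after Hpgd, rose by 1.05 (adjusted p = 0.00633), Mgst2 by 1.70 (0.00708) and the prostaglandin exporter Abcc4 by 0.86 (0.0318) in Luc tumours. The gene that fell was Ggt1, which trims leukotriene C, at -1.12 ± 0.36 (SE; adjusted p = 0.0413). The count in LucOS, 2 genes, was 7 without LucOS vector 2, 1 without LucOS vector 1 and 0 without LucOS Aoah 1, LucOS Aoah 3 or LucOS vector 3. Many of these genes are made by hepatocytes, and 3 of the 9 hepatocyte markers rose in Luc, 1 in LucOS and 5 on average, with the summed levels given at the start, in which Alb was the largest part in every tumour. The markers did not move as one in Luc, where 5 of the 9 had changes above 0 and 4 below, down to -1.19. Hnf4a, for example, was at 19.9 to 87.1 TPM in the Luc Aoah tumours, against 64.5 to 118 TPM with vector. Among LucOS tumours 8 of the 9 had changes above 0 and 1 below. Their median there was 1.10, against -0.02 for all genes. The summed level of LucOS Aoah tumours lay above that of LucOS vector tumours by a narrow margin (7321 against 7267 TPM), whereas the Luc sums overlapped. The part of hepatocyte content in the rises of these eicosanoid genes was not tested.

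**Figure D5:**
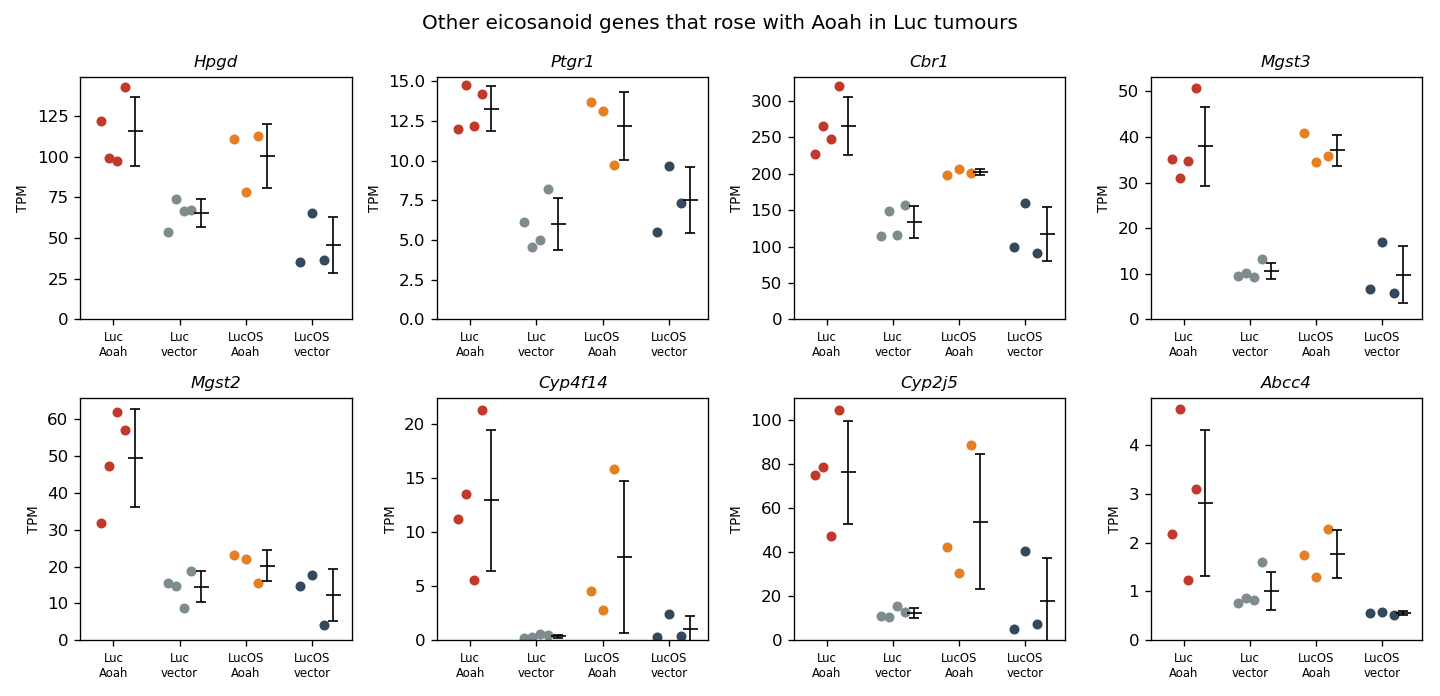
TPM in each tumour (points) with the mean ± SD of the group (bar; n = 4, 4, 3 and 3) for the 8 other eicosanoid genes that rose with Aoah in Luc tumours; axes start at 0 and cut the lower part of some bars. Mgst3, Cbr1 and Hpgd lie higher in all Aoah tumours than in the vector tumours of the same model.

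Among the remaining genes of phospholipid metabolism, calls were made in Luc tumours and on average, and not in LucOS. Of 31 further genes of phospholipid synthesis, 26 were tested; 1 rose and 5 fell in Luc, 0 passed in LucOS (3 at an unadjusted p under 0.05) and 1 rose and 2 fell on average. The genes called were 23.1% of the 26 in Luc (all genes, 22.2%) and 11.5% on average (all genes, 14.7%), near the share over the whole table. Etnk1, the ethanolamine kinase, changed by -1.0 ± 0.24 (SE; adjusted p = 0.014) and Crls1, the cardiolipin synthase, by 0.72 ± 0.18 (SE; adjusted p = 0.0143) in Luc. Gpat4, a glycerol-phosphate acyltransferase, changed by -0.81 ± 0.26 (SE; adjusted p = 0.0395) and Pgs1, which makes phosphatidylglycerol phosphate, by -1.20 ± 0.38 (SE; adjusted p = 0.0395). This Luc count of 6 was 2 without Luc Aoah 1, Luc Aoah 3, Luc vector 1 or Luc vector 4, 1 without Luc Aoah 4 or Luc vector 3, and 11 without Luc Aoah 2.

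Of 41 further genes of phospholipid breakdown, 38 were in the table and 31 were tested; 2 rose and 5 fell in Luc, 0 passed in LucOS (4 at an unadjusted p under 0.05) and 2 rose and 2 fell on average. That is 22.6% of the 31 in Luc (all genes, 22.2%) and 12.9% on average (all genes, 14.7%), again near the whole table. Pld1, a phospholipase D, was at 1.04 to 2.52 TPM in Luc Aoah tumours, against 4.02 to 7.01 TPM in Luc vector tumours and changed by -1.42 ± 0.24 (SE; adjusted p = 0.00158) in Luc tumours and -1.03 ± 0.18 (SE; adjusted p = 0.00184) on average. It passed without any single tumour. Abhd3, a lipase that in mice acts on phospholipids with medium chains, changed by 1.29 ± 0.30 (SE; adjusted p = 0.0112), and also passed without any single tumour. Gde1 and Gpcpd1, both of which split glycerophosphodiesters, went opposite ways, at -1.26 ± 0.30 (SE; adjusted p = 0.0134) for Gde1 and 0.98 ± 0.26 (SE; adjusted p = 0.02) for Gpcpd1. The Luc count of 7 was 12 without Luc Aoah 2, 4 without Luc Aoah 1 or Luc vector 4, 3 without Luc vector 1 and 2 without Luc Aoah 4 or Luc vector 3.

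Of 26 further genes of fatty acid chain building, 23 were tested and only Slc27a5, a liver acyl-CoA synthetase for very long chains and bile acids, passed, on average over both models (4.35%, against 14.7% of all genes). It was at 116, 126, 67.1 and 135 TPM in Luc Aoah tumours, against 32.5, 47.9, 51.3 and 40.1 TPM in Luc vector tumours. Slc27a5 had 76.0, 52.8 and 108 TPM in LucOS Aoah tumours, against 8.03, 80.7 and 18.4 TPM in LucOS vector tumours. LucOS vector 2 lay within the range of the LucOS Aoah tumours, and the log2 change was 1.49 ± 0.37 (SE; adjusted p = 0.0163) on average. Of 26 receptors for lipid mediators, 6 reached the level to be tested (Cysltr2, Fpr2, Lpar6, Ptafr, Ptger3 and S1pr1), and 0 passed with Aoah; by limma 0 in Luc, 2 in LucOS and 1 on average had an unadjusted p under 0.05.

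Whether the change with Aoah differed between the models was tested directly as LucOS minus Luc, and 0 of the 37 members passed, as did 0.00743% of all genes. In this comparison 1 member, Pla2g12a, had an unadjusted p under 0.05, with a difference of 0.94 ± 0.39 (SE; adjusted p = 0.443). The difference for Plaat3 was 0.64 ± 0.32 (SE; adjusted p = 0.443) and for Elovl2 0.56 ± 0.49 (SE; adjusted p = 0.548). The median difference was 0.36 for the members and 0.23 for all genes. That Pla2g12a, Chka or Elovl2 passed in Luc and not in LucOS is therefore not shown to be a difference between the models.

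With the antigens, LucOS against Luc, 0 of the 37 members passed among Aoah tumours (all genes, 0.0817%) and 0 among vector tumours (all genes, 0%), with 4 members at an unadjusted p under 0.05 in each. Among Aoah tumours Plaat3 was higher in LucOS by 0.92 ± 0.23 (SE; adjusted p = 0.275), with the 3 LucOS tumours above the 4 Luc tumours, and Ptges2 differed by -0.87 ± 0.23 (SE; adjusted p = 0.296). Ptdss2 differed by -0.95 ± 0.32 (SE; adjusted p = 0.523) and Pla2g7 by 0.99 ± 0.37 (SE; adjusted p = 0.641) in the same comparison. Among vector tumours the 4 were Lclat1, Pisd, Pla2g12a and Ptdss1, all lower in LucOS, at -1.03, -0.71, -0.66 and -0.59, where the median of all genes was -0.25.

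In the authors' deposited table for Luc, which came from counts, 16 of the 42 members passed an adjusted p of 0.05 (38.1%, against 31.7% of all genes with a value), 7 higher with Aoah (all genes, 15.6%) and 9 lower (all genes, 16.1%). All 10 members that passed in limma were among the 16, with the same direction. In the authors' deposited table for LucOS, 1 of 41 members with a value passed (2.44%, against 2.77% of all genes, of which 1.99% higher and 0.78% lower), and this was Plaat3. The authors' deposited table gave Plaat3 a log2 fold change of 1.41 (adjusted p = 5.79e-05) in Luc tumours and 1.69 (adjusted p = 4.36e-06) in LucOS. The 6 members that passed in Luc in the authors' deposited table and not by limma were Enpp2 at 1.28 (adjusted p = 1.22e-05), Elovl5 at 0.88 (adjusted p = 0.00299), Acsl5 at 0.79 (adjusted p = 0.00257), Pla2g4a at 0.80 (adjusted p = 0.00982), Fads2 at -0.80 (adjusted p = 0.0328) and Ptges at -2.26 (adjusted p = 0.00957). Ptges is thus an eicosanoid enzyme called lower in the authors' deposited table, at levels of at most 2.31 TPM. Both tables come from the same tumours as the limma fit.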

How the data were processed

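Per the labels, RNA of 14 tumours was isolated with TRIzol, poly-T beads captured the mRNA and random hexamers primed the cDNA. Directional and non-directional library steps are both described and the one used is not stated, so reads of overlapping or antisense genes cannot be told apart. RSEM, DESeq2 and genome build mm39 are named, with no versions, per the submitters' processing notes. The sources used here do not give the aligner. The authors deposited log2 values of TPM plus 1, 1 column per tumour, with no counts, so depth is unknown and values carry no counting interval. TPM was back-calculated from them. The authors' 2 deposited tables of Aoah against vector hold log2 fold changes and adjusted p-values; their direction was read from Aoah. A receptor repertoire table was not used.

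Genes at 1 TPM or more in at least 3 tumours (13466) were fitted on log2(TPM + 1) with limma 3.58.1 (R 4.3.3), with 1 mean per group over all 14 tumours, variances moderated with trend and robust options, and Benjamini-Hochberg adjustment over all genes at 0.05. All adjusted p-values are from this fit unless the authors' table is named. Changes on this scale understate those of low genes. The fit was tested on simulated data. Contrasts were Aoah minus vector in each model, their average and difference, and LucOS minus Luc among Aoah and among vector tumours. Comparisons that share tumours are not independent of each other.

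The 42 members, the further pathway lists (155 genes), the marker lists and the tests were chosen with earlier results of these data known. Values in every tumour are given for members that passed in any contrast and for the 2 most abundant of each role. Of each further list, up to 4 genes with the smallest p that passed with Aoah are named. Others named beside them (Hpgd, Ptgr1, Mgst2, Abcc4, Ggt1, the receptors, and the markers Ly6c2, Chil3 and Hnf4a) were chosen after their values were seen. Gene classes and identifiers came from GENCODE M21 and RefSeq tables of build GRCm38, which differs from mm39, so no coordinates but those of the RefSeq promoter windows are given. For members with several windows the first listed was used, while the shares over all windows counted every one. Alternatives were 26 settings of pseudocount, filter, scaling, model and tumours left out.

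Replicate numbers in the labels were checked as pairs: deviations of same-numbered tumours correlated at -0.554 to 0.198, so the numbers do not pair the tumours.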

Additional observations from a re-analysis of the deposited data

Results flagged for a closer look

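Among the 42 genes in the 2 groups of 4 tumours, 84 sets of values, 2 held a tumour far from the other 3 of its group; chance gives about 1 in 20 such sets, and the groups of 3 were not examined. Enpp2 was lowest in Luc Aoah 3, at 3.22 TPM, where the other Luc Aoah tumours had 7.07 to 8.03 TPM. Luc Aoah 3 is also the tumour with 9.19% of its TPM in small noncoding RNA genes. It held the lowest value of all 14 tumours for Chka, Pla2g12a, Pla2g6, Lpcat4, Elovl2 and Pisd, which fell with Aoah in Luc. Ptdss1, which also fell, was at 7.02 TPM in Luc Aoah 3 and lower only in LucOS Aoah 2, at 6.57 TPM. Whether the small noncoding share bears on Enpp2 or on these falls was not tested. Ptgs2 was highest in Luc vector 2, at 0.07 TPM, where each of the other Luc vector tumours had 0.01 TPM, all far below the level needed for a test.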

How the results depend on the processing

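The count of 10 members that changed with Aoah in Luc tumours was 2 with no filter on low values, 6 with only the groups compared, 0 without Luc vector 1 and 3 together, and 3 without Luc Aoah 3 and LucOS Aoah 3 together, an alternative added after seeing the data. It ran from 1 to 14 when single tumours were left out. The 1 member in LucOS was 2 after median centring, 2 after quantile normalization, 0 with only the groups compared and 0 without both Aoah 3 tumours, and ran from 0 to 3 with single tumours left out. The 6 members on average were 12 after median centring (6 higher, 6 lower), 10 after quantile normalization (5 higher, 5 lower), 2 with no filter and 2 without Luc vector 1 and 3 together, and ran from 2 to 10. With the replicate number as a block, although no pairing by number was seen, the counts were 2 in Luc, 1 in LucOS and 3 on average. The difference between models and both antigen comparisons had 0 members in every alternative run. In 365 recomputed values of the 17 calls, 233 kept their side of the threshold, 132 lost it and 0 changed direction; of 921 for 42 calls of the further pathway genes, 704 kept it, 217 lost it and 0 changed direction. The cause of these losses was not tested. For the counts under alternatives, here and above, the share of all genes called in the same setting is not given. Such counts do not show whether the listed genes moved apart from the whole table. Depth is unknown, so what it limits cannot be given.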
